A study of Mus musculus with 12 samples.

Results

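Calcineurin is a phosphatase that calcium and calmodulin switch on, and the NFAT transcription factors are its best known substrates. The 10 genes described here were chosen by name from the 23235 gene symbols in the per-library tables, with earlier results of these data known. All 10 are reported whatever their values. They are the catalytic subunits Ppp3ca, Ppp3cb and Ppp3cc, the regulatory subunit Ppp3r1, the calcium-regulated factors Nfatc1, Nfatc2, Nfatc3 and Nfatc4, and the calcineurin regulators Rcan1 and Rcan2. One mechanism discussed for camphor oil runs through calcium and calcineurin, and the question here is whether RNA of these genes differed with the oil or between the tissues.

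All libraries came from FVB/NJ mice, an inbred albino strain, with 3 libraries in each of 4 groups. In the epidermis groups, shaved skin received 400 µL of 20% camphor white oil (CWO, a distilled fraction of camphor tree oil) or of its acetone vehicle, and epidermis was taken after 24 h. The papilloma groups were benign skin tumours raised in mice shaved at 6 to 7 weeks of age, by painting the carcinogen DMBA once (400 nmol) and then the promoter TPA at 10 nmol per application. Those mice then had 20% CWO or acetone for 6 weeks, and 4 tumours per mouse were pooled from 3 mice per treatment. No age is labelled for the epidermis mice, and the labels speak of 5 treated mice, of which the samples with the best RNA were sequenced. Tissue, carcinogen, promoter, dissection and length of treatment changed together, so they cannot be told apart in any comparison of papilloma with epidermis.

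When cell calcium rises, calcineurin removes phosphates from Nfatc1 to Nfatc4, which then enter the nucleus and act with partners such as AP-1. Kinases put the phosphates back and the factors leave again, so the RNA levels given here say nothing of where the proteins were. The RCAN proteins bind calcineurin and can restrain it. In skin, calcineurin and NFAT act in T cells, where drugs such as cyclosporin A block them, and in keratinocytes, and Nfatc1 is known for its role in hair follicle stem cells. Rcan1 has a start inside the gene, and the promoter there is a well known NFAT target.

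From RefSeq start sites (GRCm38.p6), 12 windows of 250 bases were read for 7 of the 10 members. No window was read for Nfatc1, Ppp3ca and Ppp3cc, which does not show that these genes lack a RefSeq start. The windows printed are those of Rcan1, Nfatc2 and Nfatc4, which, with Nfatc1, differed most between the tissues. Counts for the other windows are given after them. Capitals mark GGAAA on either strand (read as TTTCC on the other), the core that NFAT proteins bind, and TGANTCA, a palindrome that AP-1 binds. The first Rcan1 window, chr16:92466170-92466419 on the minus strand, lies before the distal start and the second, chr16:92400079-92400328, before the internal start.
Rcan1 distal start: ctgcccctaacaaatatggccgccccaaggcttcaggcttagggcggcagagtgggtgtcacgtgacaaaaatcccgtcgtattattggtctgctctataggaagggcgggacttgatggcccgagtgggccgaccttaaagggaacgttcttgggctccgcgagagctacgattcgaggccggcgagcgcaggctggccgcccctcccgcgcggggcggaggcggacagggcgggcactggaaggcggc
Rcan1 internal start: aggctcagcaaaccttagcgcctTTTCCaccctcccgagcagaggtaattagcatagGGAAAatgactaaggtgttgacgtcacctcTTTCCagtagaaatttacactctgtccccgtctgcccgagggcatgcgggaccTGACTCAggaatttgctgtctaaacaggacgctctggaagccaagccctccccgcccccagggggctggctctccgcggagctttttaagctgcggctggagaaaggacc
Nfatc2 first start: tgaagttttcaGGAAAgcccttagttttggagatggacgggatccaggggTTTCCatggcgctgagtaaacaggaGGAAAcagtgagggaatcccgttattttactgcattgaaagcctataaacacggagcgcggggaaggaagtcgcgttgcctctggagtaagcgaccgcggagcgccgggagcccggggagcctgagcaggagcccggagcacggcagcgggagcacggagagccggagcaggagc
Nfatc2 second start: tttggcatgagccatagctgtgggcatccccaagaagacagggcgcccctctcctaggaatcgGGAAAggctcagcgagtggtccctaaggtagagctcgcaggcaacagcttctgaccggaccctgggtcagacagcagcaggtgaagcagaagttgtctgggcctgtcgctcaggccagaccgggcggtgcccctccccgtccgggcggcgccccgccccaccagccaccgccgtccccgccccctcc
Nfatc4: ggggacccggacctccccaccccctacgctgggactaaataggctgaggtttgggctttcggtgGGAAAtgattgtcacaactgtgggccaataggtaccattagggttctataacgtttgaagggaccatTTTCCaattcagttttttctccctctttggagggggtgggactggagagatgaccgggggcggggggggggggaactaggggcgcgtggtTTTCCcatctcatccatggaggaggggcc
The Nfatc2 windows are chr2:168601658-168601907 and chr2:168590366-168590615 on the minus strand, and the Nfatc4 window is chr14:55824545-55824794 on the plus strand.

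The distal Rcan1 window held 0 copies of GGAAA and 0 of TGANTCA. The internal Rcan1 window held 3 copies of GGAAA and 1 of TGANTCA. The Nfatc2 windows held 3 and 1 copies of GGAAA, and the Nfatc4 window held 3. Of the windows not printed, that of Ppp3cb, which differed less between the tissues, also held 3. The Rcan2 windows held 2, 0 and 0, with 1 TGANTCA in the last. The Nfatc3 windows held 1 and 0, and the Ppp3r1 window held 0. Over all 32851 RefSeq windows of this length, 55.6% held GGAAA, 6.75% held TGANTCA, 3.82% held both and 6.39% held at least 3 copies of GGAAA. A match describes letters and not binding. The tables give 1 value per gene, so the RNA from the Rcan1 starts could not be separated.

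Depth was about 11100000 to 24600000 fragments per library, recovered from the deposited values, and 11838 to 12452 genes reached 1 FPKM (fragments per kilobase of transcript and per library size, a level per length) in each library. Keratinocyte markers summed to 23335 to 36943 FPKM in every library. The epidermis libraries also carried all 17 skeletal muscle markers, with a sum of 12372 and 19547 FPKM in vehicle libraries 1 and 2 and 3307 to 4280 in the other 4, against 9.66 to 449 in papillomas.

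**Figure D1:**
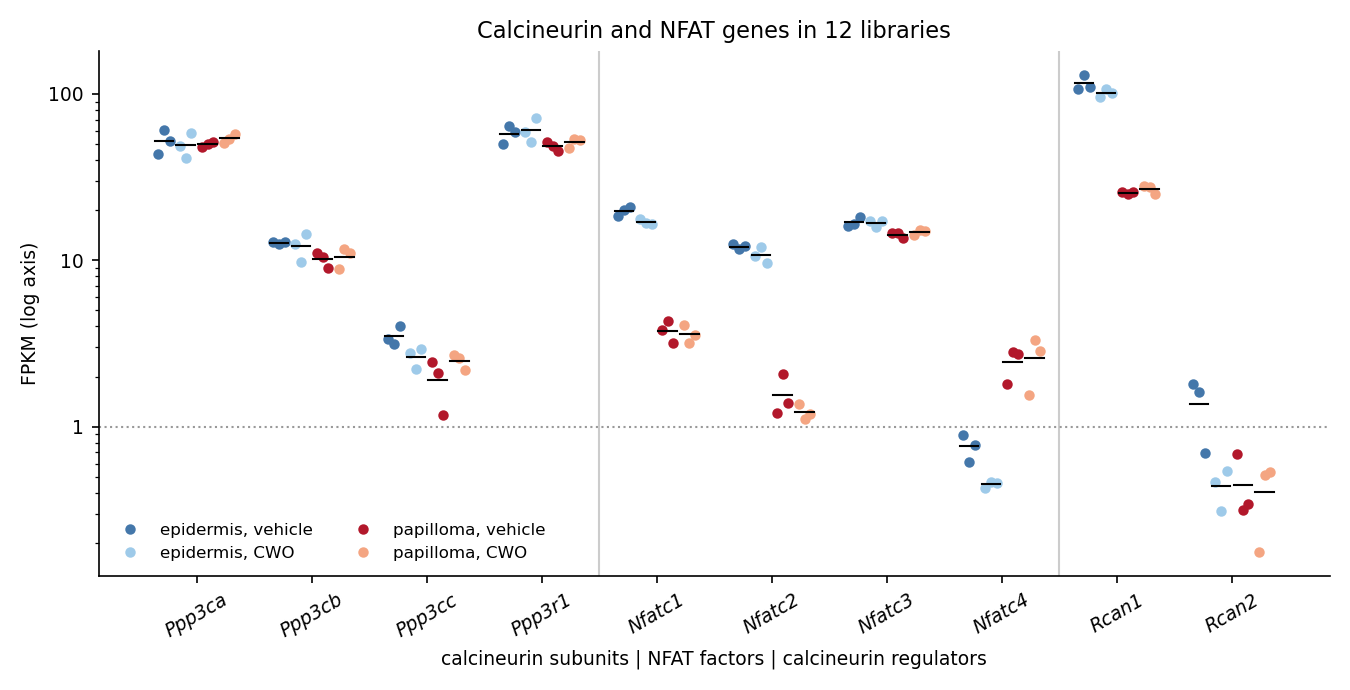
FPKM (log axis) of each gene in the 12 libraries; points are libraries, black bars are the means of 3, and the dotted line is 1 FPKM. Rcan1, Nfatc1 and Nfatc2 sit lower in all 6 papilloma libraries, Nfatc4 sits higher, and the calcineurin subunits Ppp3ca and Ppp3r1 stay in 1 narrow band.

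Ppp3ca and Ppp3r1 were the most abundant calcineurin subunits in every library. Ppp3ca, a catalytic subunit, ranged from 41.1 to 60.4 FPKM over the 12 libraries. The regulatory subunit Ppp3r1, without which the catalytic subunits are not active, ranged from 45.2 to 71.2 FPKM. Ppp3cb ranged from 8.82 to 14.4 FPKM and Ppp3cc from 1.18 to 4.00 FPKM, the latter on only 40.0 to 169 fragments per library. Ppp3ca therefore made up 72.8 to 79.4% of the summed FPKM of the catalytic subunits in epidermis and 78.0 to 83.5% in papillomas. Ppp3r2, a regulatory subunit known from testis, was listed at 0 in all 12 libraries.

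Of the NFAT genes, Nfatc1, Nfatc3 and Nfatc2 all stood near or above 10 FPKM in epidermis, while in papillomas only Nfatc3 did. Nfatc3 ranged from 13.6 to 18.1 FPKM over the 12 libraries, the narrowest range of the 10 genes, with a highest value 1.34 times the lowest. Rcan1 was the most abundant of the 10 genes in epidermis, where its lowest library was at 96.2 FPKM. Rcan2, a related regulator known from muscle, heart and brain, stayed between 0.176 and 1.79 FPKM on 8.87 to 76.3 fragments.

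In epidermis 24 h after CWO, none of the 8 genes that passed the expression filter (1 FPKM in at least 3 of the 6 libraries) was called at an adjusted p under 0.05 in limma, where 1.99% of all 12287 genes tested were called. Their log2 fold changes, on the log2(FPKM + 1) scale used throughout, lay between -0.31 for Ppp3cc and 0.06 for Ppp3r1, and their adjusted p between 0.386 and 0.974. The 95% intervals reached from -0.65 at the lowest to 0.40 at the highest. Changes within these intervals could not be resolved with 3 libraries a group.

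For 3 of these 8 genes the libraries of both groups did not overlap, all with CWO lower, and 6.67% of all genes tested were lower without overlap. The vehicle libraries had 18.4, 19.9 and 21.0 FPKM of Nfatc1, and the CWO libraries 17.8, 16.7 and 16.4 FPKM. Its log2 fold change was -0.21 (95% interval -0.45 to 0.04, adjusted p = 0.429 in limma). Hair follicle stem cell markers summed to 2394 to 2560 FPKM in the vehicle libraries and 1237 to 2113 FPKM in the CWO libraries, with 0 of 5 tested called, and their part in the Nfatc1 values was not tested.
Rcan1 levels were 107.3, 130.7 and 109.5 FPKM under vehicle, compared with 96.2, 106.6 and 100.9 FPKM under CWO. The gap between the lowest vehicle and the highest CWO library was under 1 FPKM, and the log2 fold change was -0.19 (interval -0.45 to 0.07, adjusted p = 0.517 in limma). For Ppp3cc the vehicle values were 3.37, 3.13 and 4.00 FPKM and the CWO values 2.75, 2.22 and 2.94 FPKM, a log2 fold change of -0.31 (interval -0.65 to 0.03, adjusted p = 0.386 in limma).

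The other 2 genes were under the filter in epidermis and were compared by an exact permutation test, which cannot give less than 0.1 for 3 against 3. Nfatc4 values were 0.896, 0.616 and 0.779 FPKM for vehicle, above the 0.429, 0.465 and 0.456 FPKM for CWO (log2 fold change -0.28, two-sided exact p = 0.1). Fibroblast markers summed to 28.7 to 70.3 FPKM in the vehicle libraries and 12.1 to 23.7 FPKM in the CWO libraries, and 2 of 5 tested fell; their part in the Nfatc4 values was not tested. Vehicle libraries had Rcan2 at 1.79, 1.61 and 0.689 FPKM, and CWO libraries at 0.465, 0.310 and 0.538 FPKM (log2 fold change -0.69, two-sided exact p = 0.1). Among 1804 genes under the filter but above 0.1 FPKM in every library, 10.4% were lower with CWO without overlap.
The high Rcan2 values belonged to vehicle libraries 1 and 2, the same libraries that were rich in muscle markers. Without those 2 libraries, which held the highest Rcan2 values, its log2 fold change was -0.24, with a single vehicle library left. The part of muscle in the Rcan2 values was not tested.

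In papillomas after 6 weeks of CWO, none of the 9 genes tested was called, where 0.0% of all 12142 genes tested were called (limma) and 306 had an unadjusted p under 0.05 (0 and 334 by limma-voom on recovered fragments). Their log2 fold changes ran from -0.18 for Nfatc2 to 0.29 for Ppp3cc, every adjusted p in limma rounded to 1.00, and the groups overlapped for each of the 10 genes, where 6.61% of all genes tested did not overlap. The 95% intervals reached from -0.54 to 0.70. Rcan1, a gene often used as a readout of calcineurin and NFAT activity, had 25.6, 25.1 and 25.8 FPKM in the vehicle libraries, beside 28.0, 27.7 and 25.2 FPKM in those given CWO (log2 fold change 0.08, interval -0.09 to 0.24).
The authors' deposited table for papillomas lists all 10 genes, with log2 ratios of CWO over vehicle from -0.30 (Nfatc2) to 0.38 (Ppp3cc), p-values from 0.121 to 0.957 and adjusted p of 1.0 for each. The authors' deposited table for epidermis lists only 176 genes, and none of the 10 is among them.

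The difference between the CWO effects in papilloma and epidermis was tested directly over all 12 libraries. None of the 9 genes tested was called, where 0.743% of all genes tested were. Among these 9, Ppp3cc had the largest difference, 0.60 on the log2 scale (interval 0.09 to 1.10, adjusted p = 0.39 in limma), followed by Nfatc4 at 0.31 (adjusted p = 0.80) and Rcan1 at 0.26 (adjusted p = 0.534). Rcan2, under the filter and without a test, was at 0.64.

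**Figure D2:**
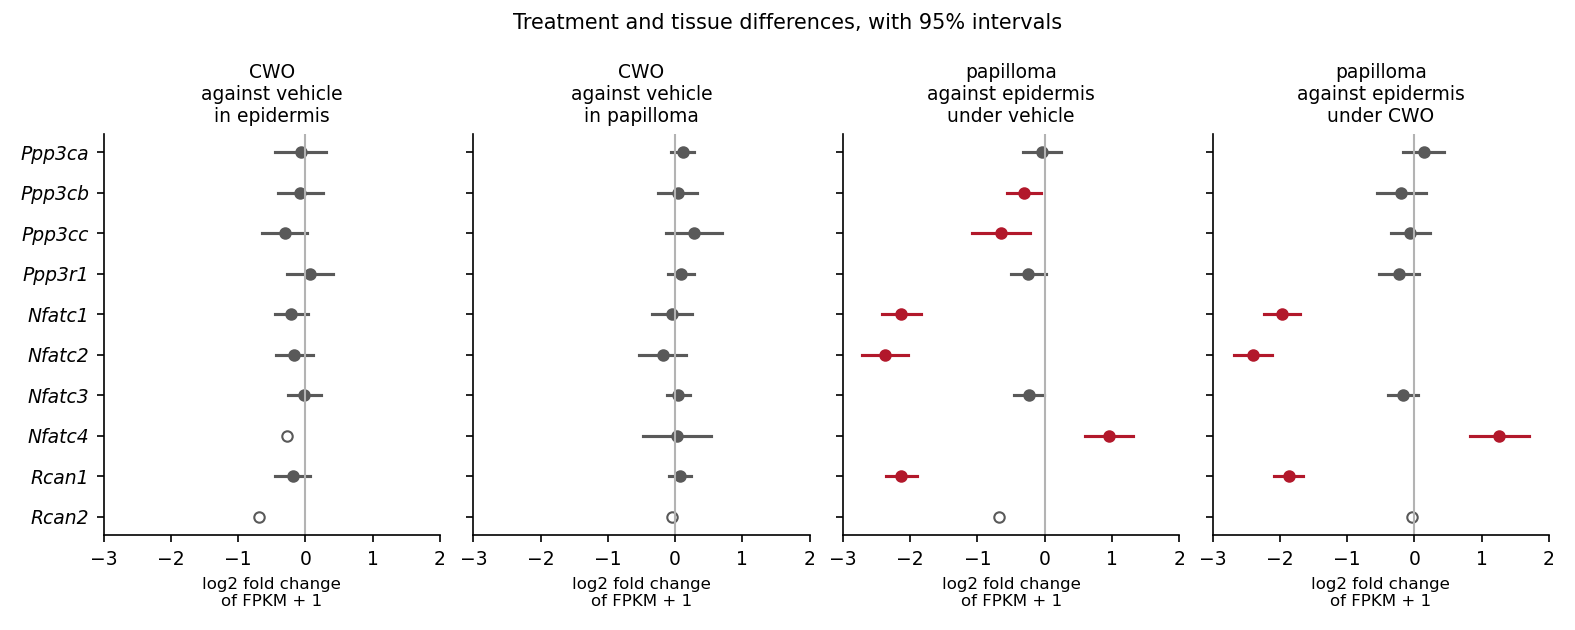
Log2 fold change of FPKM + 1 for each gene in 4 comparisons, with 95% intervals from limma; red marks adjusted p under 0.05, and open points are genes under the filter. All treatment intervals include 0, while Rcan1, Nfatc1 and Nfatc2 lie near -2 and Nfatc4 near 1 in both tissue comparisons.

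Between the tissues the largest differences were in 4 genes: Rcan1, Nfatc1 and Nfatc2 were lower in papillomas and Nfatc4 was higher, with vehicle and with CWO alike. In the vehicle libraries 1 of the 9 genes tested rose (31.8% of all 12788 genes tested did) and 5 fell (38.3%). With 70.2% of all genes called, 6 of 9 is near the background, so the sizes are given beside the calls. In the CWO libraries, which share no library with the former, 1 of 9 rose (29.1% of all 12689 genes tested) and 3 fell (39.7%), beside 68.8% of all genes called. In bulk tissue, fewer cells of a type and less RNA per cell cannot be told apart.

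Nfatc2, the NFAT factor best known from T cells, was at 12.5, 11.6 and 12.2 FPKM in vehicle epidermis and at 1.20, 2.06 and 1.38 FPKM in vehicle papillomas. With CWO it was at 10.6, 11.9 and 9.59 FPKM in epidermis and at 1.38, 1.10 and 1.19 FPKM in papillomas. No papilloma library came near an epidermis library. The means were 7.82-fold lower in papillomas with vehicle and 8.75-fold lower with CWO. The log2 fold changes were -2.38 ± 0.15 (SE, adjusted p = 3.49e-06 in limma) and -2.39 ± 0.12 (adjusted p = 1.23e-06), and 3.34% and 3.33% of all genes tested fell at least as far.

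Nfatc1 was at 3.81, 4.29 and 3.17 FPKM in vehicle papillomas and at 4.10, 3.19 and 3.54 FPKM in CWO papillomas, against 16.4 to 21.0 FPKM in the 6 epidermis libraries. The means were 5.27-fold lower with vehicle (log2 fold change -2.13 ± 0.12 SE, adjusted p = 2.62e-06 in limma) and 4.70-fold lower with CWO (-1.97 ± 0.12, adjusted p = 2.50e-06). At least as large a fall was seen in 4.35% and 4.97% of all genes tested.

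Rcan1 ranged from 25.1 to 28.0 FPKM over the 6 papilloma libraries and from 96.2 to 130.7 FPKM over the 6 epidermis libraries. The order of its group means was vehicle epidermis (115.8 ± 12.9 FPKM, SD, n = 3), CWO epidermis (101.2 ± 5.18), CWO papilloma (27.0 ± 1.57) and vehicle papilloma (25.5 ± 0.334), and within each tissue the neighbours were not called different. The means differed between tissues 4.54-fold with vehicle (log2 fold change -2.13 ± 0.10 SE, adjusted p = 9.25e-07 in limma) and 3.75-fold with CWO (-1.87 ± 0.09, adjusted p = 1.05e-06). Of all genes tested, 4.34% and 5.60% fell at least as far. RNA from the internal start of Rcan1, whose window holds 3 copies of GGAAA, and from the distal start both feed this single value.

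Nfatc4, an NFAT factor known from heart, brain and mesenchymal cells, went the other way. It was at 1.803, 2.81 and 2.74 FPKM in vehicle papillomas and at 1.55, 3.30 and 2.86 FPKM in CWO papillomas, while no epidermis library exceeded 0.896 FPKM. The means were 3.21-fold higher with vehicle (log2 fold change 0.96 ± 0.16 SE, adjusted p = 0.00070 in limma) and 5.71-fold higher with CWO (1.27 ± 0.19, adjusted p = 0.00042). Of all genes tested, 14.5% and 7.83% rose at least as far. Nfatc4 passed the filter only through the papilloma libraries, so it could be tested only because it was higher there. Its counts were small, at 20.7 to 64.8 fragments in epidermis and 97.2 to 204 in papillomas.

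Nfatc3 differed little between the tissues, at 16.9 ± 1.07 FPKM (SD, n = 3) in vehicle epidermis and 14.3 ± 0.608 in vehicle papillomas. Its lowest epidermis library was at 15.9 FPKM and its highest papilloma library at 15.2 FPKM, so the tissues did not overlap. Its log2 fold change was -0.23 with vehicle (interval -0.45 to -0.01, adjusted p = 0.059 in limma) and -0.17 with CWO (interval -0.39 to 0.05, adjusted p = 0.144).

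**Figure D3:**
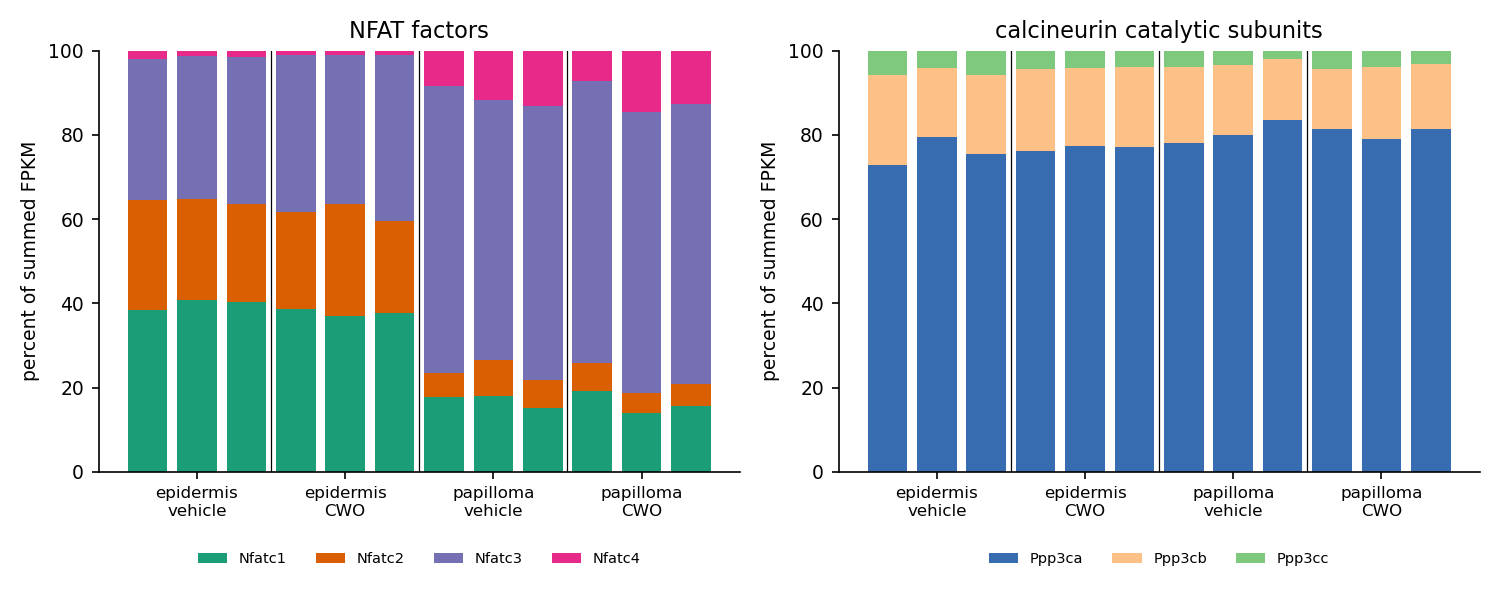
Share of each gene in the summed FPKM of the 4 NFAT factors (left) and of the 3 catalytic subunits (right), 1 bar per library. In papillomas Nfatc3 takes 61.5 to 68.2% of the NFAT sum, and the catalytic shares keep Ppp3ca on top in every library.

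The NFAT family therefore had a different make-up in the tissues. The summed FPKM of the 4 factors was 43.7 to 52.1 in epidermis and 20.9 to 23.8 in papillomas. Nfatc1 made up 37.1 to 40.8% of that sum in epidermis and 14.0 to 19.3% in papillomas, and Nfatc2 made up 22.0 to 26.5% and 4.85 to 8.65%. Nfatc3 went from 33.6 to 39.4% in epidermis to 61.5 to 68.2% in papillomas. Nfatc4 went from 0.935 to 1.87% to 7.29 to 14.5%. None of these shares overlapped between the tissues, and no background was computed for such shares. Between the tissues 70.2% of all genes tested were called with vehicle and 68.8% with CWO. They are parts of 1 sum and depend on each other. Nfatc3 itself did not rise in FPKM, with means of 16.9 in vehicle epidermis and 14.3 in vehicle papillomas.

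Among the calcineurin subunits, Ppp3cc and Ppp3cb fell with vehicle and none was called with CWO. Ppp3ca was not called in either comparison (log2 fold change -0.04 with vehicle, interval -0.33 to 0.24, and 0.14 with CWO, interval -0.17 to 0.45), nor was Ppp3r1 (-0.25, adjusted p = 0.0817 in limma, and -0.23, adjusted p = 0.151). By quantile normalization Ppp3ca was called with CWO (0.38, adjusted p = 0.0346), and Ppp3r1 was called when vehicle epidermis library 1 (-0.35, adjusted p = 0.0215) or CWO epidermis library 2 (-0.34, adjusted p = 0.0405) was left out. Ppp3cc fell with vehicle (-0.65 ± 0.19 SE, adjusted p = 0.0131 in limma), from 3.50 ± 0.448 to 1.91 ± 0.650 FPKM (SD, n = 3), and was not called with CWO (-0.06, interval -0.35 to 0.23). The difference between those tissue effects is the 0.60 given above, which was not called. Ppp3cb fell with vehicle by 0.31 (adjusted p = 0.0328 in limma), a call that was lost in 8 of 17 other settings, and its CWO value was -0.19 (adjusted p = 0.307).
The catalytic subunits summed to 1.16 to 1.20 times the FPKM of Ppp3r1 in vehicle epidermis, 1.03 to 1.08 times in CWO epidermis, 1.19 to 1.37 times in vehicle papillomas and 1.27 to 1.34 times in CWO papillomas. Vehicle and CWO epidermis did not overlap in this ratio, nor did CWO epidermis and CWO papillomas (two-sided exact permutation p = 0.1 for each, the least possible). No background share was computed for such ratios, and none of the subunits was called after CWO in epidermis. The ratio overlapped between vehicle epidermis and vehicle papillomas (exact p = 0.2) and between the papilloma groups (exact p = 0.8).
Rcan2, under the filter in both tissue comparisons, was at 0.688, 0.316 and 0.342 FPKM in vehicle papillomas and at 0.176, 0.510 and 0.535 FPKM in CWO papillomas. Its log2 fold change was -0.68 with vehicle (two-sided exact permutation p = 0.1) and -0.04 with CWO (exact p = 0.8), and without the 2 muscle-rich libraries the vehicle value was -0.23. Of 1209 genes under the filter but at 0.1 FPKM or more in every vehicle library, 23.7% were lower in papillomas without overlap.

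Marker genes of several cell types moved with the tissue. All 7 T cell markers were lower in papillomas in both comparisons, none of them at 0, and their sum was 234 to 285 FPKM in epidermis and 21.1 to 31.5 FPKM in papillomas. Thy1 alone had 15.8 to 22.2 FPKM of the papilloma sum. In each CWO papilloma library 5 of the 7 were under 1 FPKM. The markers under 1 FPKM in papillomas passed the filter only through epidermis. Hair follicle stem cell markers summed to 1237 to 2560 FPKM in epidermis, mostly Krt15, and 66.7 to 120.2 in papillomas, with 3 of 5 tested lower and 1 higher. In papillomas Krt15 had 20.6 to 62.6 FPKM and Cd34, another of these markers, 26.0 to 39.6 FPKM. Fibroblast markers summed to 12.1 to 70.3 FPKM in epidermis and 340 to 564 FPKM in papillomas, with 6 of 7 higher, and endothelial markers to 3.77 to 15.5 and 28.6 to 40.2 FPKM, with 5 of 6 tested higher. All 17 muscle markers were lower in papillomas. Macrophage markers summed to 49.2 to 81.9 FPKM in epidermis and 80.4 to 125.9 FPKM in papillomas, with 5 of 7 higher and 2 lower in each comparison. Mast cell markers summed to 2.56 to 8.81 and 18.9 to 39.4 FPKM, with 4 of 5 tested higher with vehicle and 5 of 6 with CWO. Fibroblast, endothelial and mast cell markers under 1 FPKM in every epidermis library compared passed the filter only through papillomas. With CWO these included Pdgfra, Kdr and Cpa3, at most at 0.284, 0.694 and 0.181 FPKM in epidermis. The keratinocyte sum covered genes that moved apart: of 8 markers, 2 were higher and 3 lower with vehicle, and 1 was higher and 3 lower with CWO. Krt14, a keratin of basal cells, had 2605 to 5279 FPKM in epidermis and 15369 to 17073 FPKM in papillomas, while Lor, the cornified layer protein loricrin, had 5834 to 8289 and 1302 to 2159 FPKM. The sums of hair shaft and matrix markers overlapped between the tissues, at 9.17 to 127.0 and 61.0 to 556 FPKM. Of 7 tested, 4 were higher and 1 lower with vehicle, and 3 were higher and 2 lower with CWO. The part of these cell types in the Nfatc1, Nfatc2, Nfatc4, Rcan1 and Rcan2 values was not tested.

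**Figure D4:**
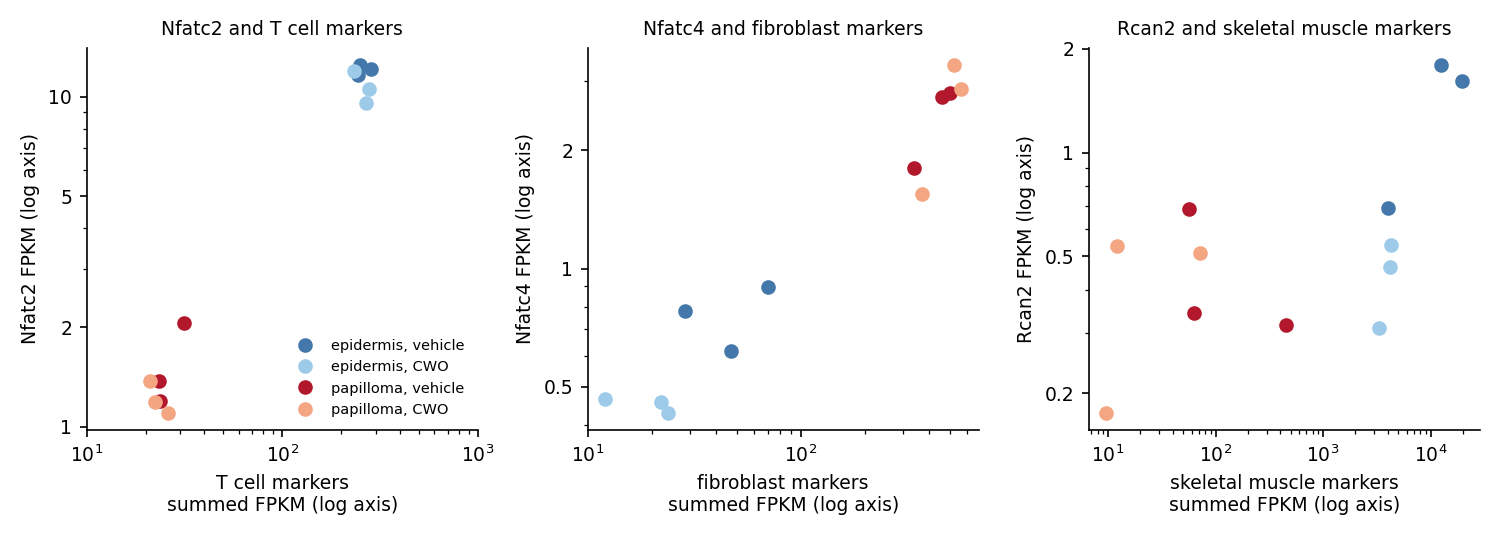
FPKM of Nfatc2, Nfatc4 and Rcan2 (log axes) against the summed FPKM of T cell, fibroblast and skeletal muscle markers in the 12 libraries. Nfatc2 and the T cell sum are both low in the 6 papilloma libraries, Nfatc4 and the fibroblast sum are both high there, and Rcan2 exceeds 1 FPKM only in the vehicle epidermis libraries with 12372 and 19547 FPKM of muscle markers.

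A list of 73 further genes of calcium entry, calmodulin, calcineurin and NFAT biology was read for the same comparisons. After CWO, 0 of 58 tested were called in epidermis, 0 of 58 in papillomas and 0 of 61 in the test of the difference. The smallest adjusted p in epidermis was 0.0639, for Vegfa, the vascular growth factor, at a log2 fold change of 1.22. Between tissues, 19 of 61 rose and 25 fell with vehicle, where 31.8% and 38.3% of all genes tested did. With CWO, 18 of 60 rose and 21 fell, where 29.1% and 39.7% of all genes tested did. These counts are near the background. The medians were -0.03 and -0.04, beside -0.07 and -0.12 over all genes tested, and single genes reached from -3.09 to 3.75 with vehicle.

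Genes of each larger role went in both directions. For each role described, the 2 genes with the smallest p in the CWO libraries are given, as log2 fold changes with vehicle and with CWO. With so many of all genes called between the tissues (70.2% and 68.8%), nothing is read from the counts per role. Of the store-operated calcium entry genes, 4 of 11 tested rose and 4 fell in each comparison. Orai1, the pore of the calcium release-activated channel, fell by 1.84 and 1.91, and Atp2a2, the pump that refills the endoplasmic reticulum and is mutated in Darier disease, was at 1.66 and 1.69.
Among calcineurin binders, Ppif, a mitochondrial cyclophilin, was at 1.39 and 1.21, and Fkbp1a, through which the drug FK506 blocks calcineurin, at -0.63 and -0.77. Among NFAT kinases and export genes, Dyrk1b was at -1.91 and -1.28 and Csnk1a1, casein kinase 1 alpha, at 1.02 and 0.80. Of the other calcineurin substrates, Tfeb, a regulator of lysosome genes, was at -2.11 and -1.78 and Mef2a at 0.49 and 0.80.
Of the NFAT partners, Gata3 was at -3.09 and -3.15, from 174 ± 16.3 to 19.8 ± 5.09 FPKM with vehicle (SD, n = 3), and Irf4 at -1.54 and -1.53. Among genes known as NFAT targets, 5 of 14 tested rose and 8 fell with vehicle, and 3 of 13 rose and 6 fell with CWO. Egr2, an early growth response factor, was at -2.12 and -2.80, and Ptgs2, the inducible cyclooxygenase, at 3.32 and 3.37. Each gene named for these roles passed the threshold in limma in both comparisons. Ptgs2, at 0.577 and 0.898 FPKM on average in vehicle and CWO epidermis, passed the filter through the papillomas (15.1 and 19.1 FPKM), and Irf4, at 0.397 and 0.337 FPKM in papillomas, through epidermis (3.05 and 2.88 FPKM), so both could be tested only because of the tissue where they are high.
Of the remaining family genes, Nfat5, an NFAT relative that responds to salt stress and not to calcineurin, was at 0.39 and 0.64 (adjusted p = 0.0154 and 0.0149, limma). Rcan3, the third regulator of the Rcan family, was at -0.06 and -0.25 and was not called.

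**Figure D5:**
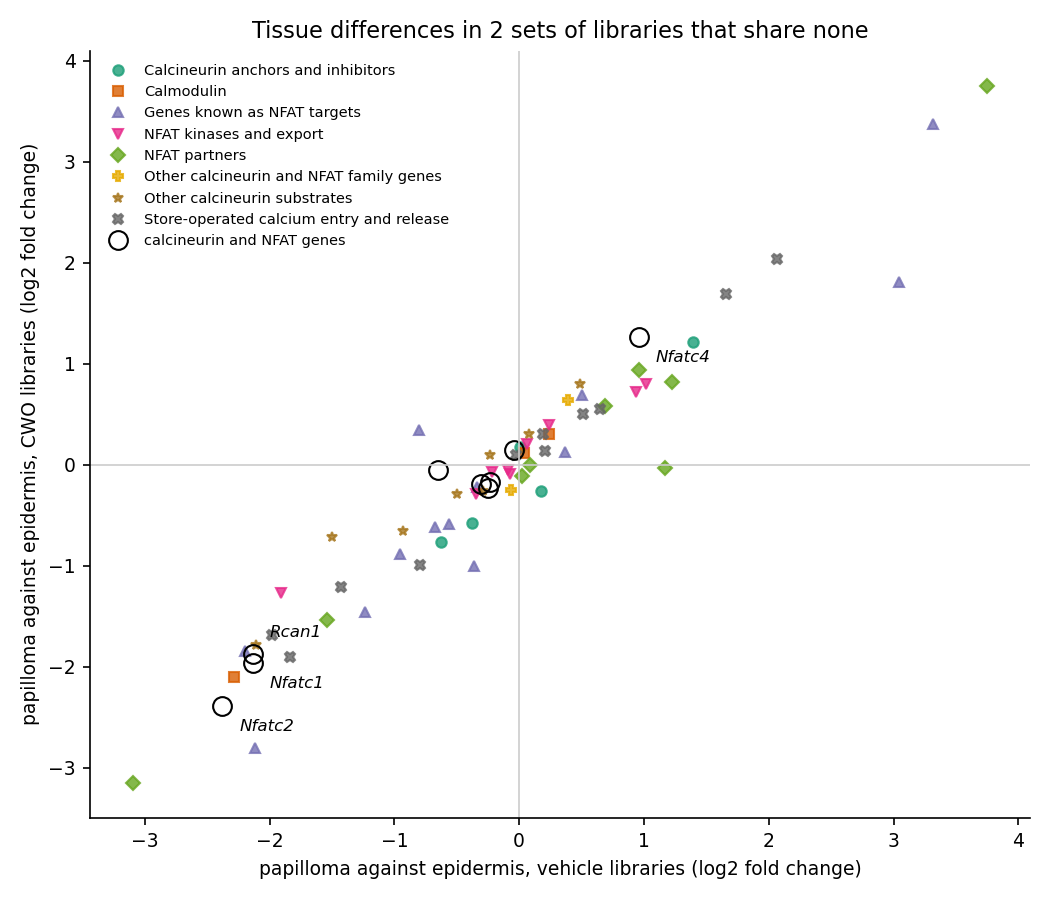
Log2 fold change of papilloma over epidermis in the vehicle libraries (x axis) and in the CWO libraries (y axis) for 60 pathway genes, by role, and for 9 of the calcineurin and NFAT genes (open circles). Nfatc1, Nfatc2 and Rcan1 lie at the lower left with values near -2 on both axes, and genes of each larger role lie on both sides of 0.

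The genes most like each member were taken by Pearson r of log2(FPKM + 1) over the 12 libraries among 13149 genes. The libraries fall into 2 clusters by tissue, so a high r mostly restates the tissue difference. Nfatc1 was closest to Irf4 and Sphk2 (both r = 0.997), Nfatc2 to Fam73b and Susd2 (both 0.997), and Rcan1 to 2310050C09Rik (0.998) and Rhobtb1 (0.997). Such likeness was common: 2170, 2174 and 2061 genes had r of at least 0.95 with Nfatc1, Nfatc2 and Rcan1. Nfatc4 was closest to C130026I21Rik and Fam20a (both 0.98), with 122 genes at 0.95 or more. Nfatc3 was closest to Isoc1 and Glud1 (both 0.98), with 41 such genes.
The calcineurin subunits had few close neighbours. Ppp3r1 was closest to Gdi2 (0.97) and Cnih (0.95), Ppp3cb to 2700089E24Rik and A730098P11Rik (both 0.93), and Ppp3cc to Tatdn3 (0.93) and 6720456H20Rik (0.90). Ppp3ca was closest to E130201H02Rik (0.78) and Tm9sf2 (0.77), and 0 genes reached 0.95 with it.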

How the data were processed

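Poly-A RNA of 12 mouse libraries was sequenced after TruSeq preparation. Per the submitters' processing notes, the authors used bcl2fastq 1.8.4, TopHat2 2.0.4 with mm9, Cufflinks 2.0.2 and DESeq. The deposited gene tables give FPKM, which the authors made with Cufflinks per the file headers. The authors' deposited comparison tables give normalised mean signal per group, its ratio, the log2 of that ratio and a p-value from DESeq, and were only read.

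Here rows of 1 symbol were summed (248 symbols), and log2(FPKM + 1) was tested in limma 3.58.1 (R 4.3.3) with an intensity trend, for genes with at least 1 FPKM in at least 3 libraries of the groups compared. P-values were two-sided, Benjamini-Hochberg adjusted over all genes tested, with a threshold of 0.05. Members under the filter had an exact permutation test. Fragments per gene were recovered from the FPKM and its deposited interval; 68.4 to 69.6% of values under 500 fragments were whole within 0.02, and voom on them was 1 of the alternatives. The fit was tested on simulated data.

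The members, gene lists, marker lists and alternatives were chosen with earlier results of these data known. The text names all 10 members, any listed gene called in a treatment comparison, the 2 listed genes per role with the smallest p between tissues under CWO, and the 2 genes most like each member. Genes of 1 role are not reported here. Vegfa was named after its value was seen. Papilloma libraries are separate mice per the labels; for epidermis this is not stated, and p-values then measure the spread between samples only.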

Additional observations from a re-analysis of the deposited data

How the results depend on the processing

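Rcan1, Nfatc1 and Nfatc2 kept their tissue calls in all 17 alternatives with vehicle and all 16 with CWO. Nfatc4 kept its calls in the 13 and 12 in which it was tested. Except where no filter was applied, Nfatc4 could be tested only through its papilloma levels. Ppp3cc kept its vehicle call in 17 of 17 and Ppp3cb in 9 of 17; the latter was lost without vehicle epidermis library 1 or 3 or vehicle papilloma library 2 or 3 (adjusted p up to 0.106, limma). Nfatc3 with vehicle was called in 3 of 17 (smallest adjusted p 0.0237). Calls were also gained by Ppp3r1 in 1 of 17 with vehicle and 1 of 16 with CWO, by Ppp3ca in 1 of 16 with CWO, and by Rcan2 with vehicle when no filter was applied (-0.68, adjusted p = 0.0264, limma). No member was called in a treatment comparison or in the test of the difference under any alternative run.

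The number of genes called in epidermis (245) was 92 without a filter, 162 by limma-voom, 656 in 1 fit of all 12 libraries, 12 without both muscle-rich vehicle libraries, and 64 to 683 without single libraries (vehicle library 1 left out 83, vehicle 2 104, vehicle 3 683, CWO 1 64, CWO 2 94). In papillomas it was 1 in the fit of all 12. For the difference (98 genes) it was 59 by limma-voom, 17 without the muscle-rich libraries, and 34 to 328 without single libraries. The replicate block gave 54, 4 and 25 genes for these comparisons, and 8537 and 8406 between tissues beside 8973 and 8729; same-numbered libraries did not deviate together (r from -0.44 to 0.28), so the numbers were not read as pairs.

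Signs of small, uncalled values turned. By quantile normalization Ppp3r1 was at -0.025 in epidermis and 0.0067 between tissues with CWO, Ppp3ca at 0.11 between tissues with vehicle, Ppp3cc at 0.037 between tissues with CWO and Nfatc2 at 0.066 in the difference. By median-ratio scaling these were 0.047 for Ppp3ca, 0.028 for Ppp3cc and 0.022 for Nfatc2, and with a pseudocount of 3 Nfatc2 was at 0.041. Without single libraries, values in epidermis ran from -0.050 to 0.032 for Nfatc3, -0.20 to 0.048 for Ppp3ca, -0.19 to 0.064 for Ppp3cb and -0.057 to 0.17 for Ppp3r1. In papillomas they ran from -0.13 to 0.037 for Nfatc1, -0.12 to 0.25 for Nfatc4, -0.039 to 0.15 for Ppp3cb and -0.11 to 0.081 for Rcan2. In the difference they ran from -0.11 to 0.12 for Nfatc2, -0.026 to 0.23 for Ppp3cb and -0.091 to 0.14 for Ppp3r1. Between tissues they ran from -0.16 to 0.070 for Ppp3ca with vehicle, and with CWO from -0.14 to 0.0044 for Ppp3cc and -0.11 to 0.085 for Rcan2. The cause was not tested. Scaling moved the median of all genes between tissues with CWO from -0.12 to -0.01 (median-ratio) and 0.02 (quantile). Rcan2 and Nfatc4 in epidermis rest on few fragments, and their log2 values by limma-voom, which does not add 1 to the FPKM, were -1.55 and -0.77.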
